A study of Mus musculus with 30 samples.

Results

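Growth arrest genes were followed across 3 tissues of LFABP-/- and WT mice. They comprise 10 genes chosen by name, out of 41549 genes in the table. These are the cyclin-dependent kinase (CDK) inhibitors Cdkn1a (p21), Cdkn1b (p27), Cdkn1c (p57) and Cdkn2c (p18), the stress-response genes Gadd45a, Gadd45b and Gadd45g, and 3 genes of the p53 axis, Trp53, Mdm2 and Ccng1. All 10 were found, and all 10 passed the filter on low values (a mean of at least 1 over the 10 libraries of a tissue) in each tissue.

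LFABP-/- mice lack liver fatty acid-binding protein (gene Fabp1) in the whole body, so no single tissue can be held responsible for a difference. The same 10 male mice on a C57Bl/6J background, 5 LFABP-/- and 5 WT, gave inguinal white fat (iWAT), brown fat from between the shoulder blades (iBAT) and liver, 30 libraries in all. Both genotypes had been fed a diet with 45% of energy as fat for 12 weeks from 2 months of age, and were fasted for 4 h before the tissues were taken. Each replicate is 1 mouse.

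A cell enters growth arrest when CDKs are held inactive. The CIP/KIP proteins p21, p27 and p57 bind cyclin-CDK complexes, and p18 is an INK4 protein that binds CDK4 and CDK6. The p53 protein, encoded by Trp53, is a transcription factor that induces Cdkn1a, Mdm2 and Ccng1 after damage, and MDM2 in turn marks p53 for degradation. GADD45 proteins bind p21, PCNA and the kinase MTK1, and are induced by stress in a gene-specific way. In adipose tissue, preadipocytes pass through growth arrest before they differentiate, and p21, p27 and p18 are known from cultured preadipocytes to change in amount during that step. Cdkn1a and Gadd45g were named by the study from these same iWAT libraries, so their direction in iWAT is no independent evidence.

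Values are on the TPM scale, which divides by transcript length and brings every library to the same total, although the column headers call them RPKM. Without read counts the depth behind a value is unknown, and counting error could not be computed. In liver, Fabp1 had values of 51.8, 13.7, 0.3, 0.6 and 0.2 in LFABP-/- mice and of 9166 to 12698 in WT mice. In iWAT it had 196, 0.6, 0.8, 0.2 and 0.9 in LFABP-/- mice and 1.9 to 23.9 in WT mice. The Fabp1 value of the iWAT library labelled LFABP-/- replicate 1 thus lay above all WT iWAT libraries, and the growth arrest genes in iWAT were also fitted without that library. In it the median hepatocyte marker stood at 2.08% of its level in liver, against 0.0957% to 0.359% in WT iWAT libraries. The livers of LFABP-/- mice themselves held Fabp1 values of 51.8 at most, below the 196 of this library. Whether its label is right, and whether its Fabp1 came with liver RNA of either genotype, was not tested. In iBAT Fabp1 had 0.4, 2.0, 21.2, 15.0 and 13.1 in LFABP-/- mice and 0.2 to 8.7 in WT mice, so in this tissue it does not check the labels. In iBAT and iWAT the adipocyte markers (8 genes, Adipoq and Plin1 among them) summed to at least 6091, and in liver the hepatocyte markers (15 genes, Alb among them) summed to at least 107212.

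Other cell types were uneven among the adipose libraries, and this touches several results below. In iWAT, 19 lymphocyte markers had a mean log2 value of 5.58, 6.40 and 6.25 in LFABP-/- replicates 2, 3 and 4, and of 4.98 and 6.90 in WT replicates 3 and 4. The other iWAT libraries lay between 0.61 and 1.15. Skeletal muscle markers (22 genes) summed to 345 to 21682 in iBAT of LFABP-/- mice and to 1920 to 50279 in iBAT of WT mice. In iBAT all 14 tested hepatocyte markers were called higher in LFABP-/- mice (median log2 fold change 3.99), as were 22.3% of all genes. Several passed the filter only through LFABP-/- mice, such as Cyp2c29 (mean 2.62 in LFABP-/- and 0.06 in WT mice) and F2 (9.18 and 0.32). The count is thus partly set by the filter, and the fold changes depend on the 0.5 added before taking logs. The median hepatocyte marker stood at 0.191% to 1.84% of its liver level in iBAT of LFABP-/- mice and at 0.0027% to 0.0702% in iBAT of WT mice. In iWAT muscle markers summed to 6583 in LFABP-/- replicate 4, against 1005 at most in WT mice, and all 5 erythrocyte markers were called lower in LFABP-/- mice. Adgre1, a macrophage marker, and Pdgfra, a marker of adipocyte progenitors, were called lower in iWAT of LFABP-/- mice too.

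Brown adipocyte markers (8 genes) also differed. In iWAT all 8 had a positive log2 fold change (median 1.37) and none was called. Their mean log2 value was 7.32 in LFABP-/- replicate 2, between 3.62 and 4.30 in the other LFABP-/- libraries and between 2.49 and 4.15 in WT libraries. In iBAT it was 9.32 to 9.83 in LFABP-/- mice and 8.37 to 8.89 in WT mice, with Dio2, Ppargc1a, Elovl3 and Ucp1 called higher and Cox8b lower. Among adipocyte markers in iBAT, Fabp4 was called higher and Adipoq and Cfd lower, Cfd with a log2 fold change of -3.56. In whole tissue, fewer cells of a type and less RNA per cell cannot be told apart.

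The promoters of Gadd45g and Cdkn1a, both called higher in iBAT of LFABP-/- mice, and of Cdkn1b and Cdkn2c, the CDK inhibitors with the smallest p-values among those called lower there, are shown so that the regulatory sequence can be read beside the values. They are RefSeq promoters on GRCm38.p6, from 250 bases before the transcription start to 50 after it, 5′ to 3′ on the strand of the gene. Gadd45g lies at chr13:51846425-51846724 (+ strand), Cdkn1a at chr17:29090729-29091028 (+), Cdkn1b at chr6:134920151-134920450 (+) and Cdkn2c at chr4:109666707-109667006 (- strand). Cdkn1a and Cdkn2c each have 1 further promoter, not printed. Capitals mark matches to TATAAA (the TATA box), CCAAT (the CCAAT box), GGGCGG (the GC box), CACGTG (an E-box), TGACGTCA (a CRE), TTGCGCAA (a C/EBP motif), GTAAACA (a forkhead motif) or the p53 decamer (the unit that a p53 response element repeats), on either strand, and no matches in the printed promoters overlap.
Gadd45g: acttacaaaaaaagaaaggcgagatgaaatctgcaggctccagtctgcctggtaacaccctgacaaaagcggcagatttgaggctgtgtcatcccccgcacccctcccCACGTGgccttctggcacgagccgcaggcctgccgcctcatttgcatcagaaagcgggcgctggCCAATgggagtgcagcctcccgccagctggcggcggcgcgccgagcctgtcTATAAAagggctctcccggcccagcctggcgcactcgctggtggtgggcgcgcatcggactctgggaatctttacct
Cdkn1a: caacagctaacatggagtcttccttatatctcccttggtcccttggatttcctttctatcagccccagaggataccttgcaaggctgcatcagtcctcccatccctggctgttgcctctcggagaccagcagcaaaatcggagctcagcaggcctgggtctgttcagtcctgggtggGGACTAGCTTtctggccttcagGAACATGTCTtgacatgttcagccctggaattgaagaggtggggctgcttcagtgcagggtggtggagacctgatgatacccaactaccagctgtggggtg
Cdkn1b: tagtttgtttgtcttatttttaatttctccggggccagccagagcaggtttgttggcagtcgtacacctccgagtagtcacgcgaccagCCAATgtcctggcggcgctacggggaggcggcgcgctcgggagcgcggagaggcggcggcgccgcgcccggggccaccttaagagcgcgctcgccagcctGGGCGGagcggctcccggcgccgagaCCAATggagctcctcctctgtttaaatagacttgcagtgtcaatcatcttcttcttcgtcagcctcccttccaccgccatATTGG
Cdkn2c: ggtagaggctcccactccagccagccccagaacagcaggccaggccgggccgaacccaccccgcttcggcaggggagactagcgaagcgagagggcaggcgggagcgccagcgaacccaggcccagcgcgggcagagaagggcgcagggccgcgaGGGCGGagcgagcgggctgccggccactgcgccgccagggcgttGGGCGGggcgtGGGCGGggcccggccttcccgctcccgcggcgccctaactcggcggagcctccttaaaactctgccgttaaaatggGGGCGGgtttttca

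The Gadd45g promoter held TATAAA starting 27 bases before the transcription start, CCAAT at 78 bases before it and CACGTG at 142. Of all 32851 promoters of this length, TATAAA was in 13.6%, CCAAT in 37.4% and CACGTG in 7.15%. The printed Cdkn1a promoter held no TATAAA and had 2 matches to the p53 decamer, starting 73 and 51 bases before the start. The further Cdkn1a promoter, at chr17:29093519-29093818, held 2 matches to GGGCGG and no p53 decamer. Of the 8 genes called in any genotype comparison, 7 matched the promoter table, with 9 promoters, and Cdkn1c did not. A p53 decamer was in 8.36% of all promoters, and among these 7 genes it was found for Cdkn1a, Trp53 and Mdm2. The printed promoters of Cdkn1b and Cdkn2c carried GGGCGG, which was in 35.7% of all promoters, 1 match in Cdkn1b and 4 in Cdkn2c, and Cdkn1b also had 3 matches to CCAAT. The further Cdkn2c promoter held CCAAT and CACGTG but no GGGCGG. TGACGTCA (1.79% of all promoters) and TTGCGCAA (0.183%) were in none of the 9 promoters of these 7 genes. GTAAACA (3.65%) was found for Mdm2 alone. CCAAT was the motif found for the most of them, 6 of 7 genes. Matches are letters in a window, and none is shown here to be a bound site.

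The first comparison asked which growth arrest genes differed between LFABP-/- and WT mice in iWAT. Gadd45g was the only one of the 10 called (adjusted p under 0.1), and it was higher in LFABP-/- mice. Over all 14668 genes tested in iWAT, 1.45% were called, 0.682% higher and 0.77% lower. Gadd45g (chr13:51846678-51848468 in the files, + strand), the GADD45 gene that promotes differentiation in several lineages, had values of 172, 248, 105, 144 and 106 in LFABP-/- mice and of 63.1, 63, 69.7, 46.2 and 70.0 in WT mice. The library labelled LFABP-/- replicate 1 is the first of these values. The lowest LFABP-/- mouse stood above the highest WT mouse. Groups of 5 did not overlap for 3.11% of all genes. The mean was 155 ± 59.1 in LFABP-/- mice and 62.4 ± 9.67 in WT mice (SD, n = 5 each), a log2 fold change of 1.25 (SE 0.23, adjusted p = 0.052).

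Cdkn1a, the p21 gene and the best known target of p53, had a larger fold change but did not pass in this fit of normalized values. The study, from its own processing of the reads, reported Cdkn1a as upregulated in iWAT at an FDR under 0.1. Cdkn1a had values of 203, 164, 88.3, 85.6 and 140 in iWAT of LFABP-/- mice and of 105, 50.4, 38.3, 36.5 and 25.4 in iWAT of WT mice. The groups overlapped through WT replicate 1 alone, whose 105 lay above LFABP-/- replicates 3 and 4. The mean was 136 ± 50.1 in LFABP-/- mice and 51.1 ± 31.3 in WT mice, with a log2 fold change of 1.499 (SE 0.37, adjusted p = 0.131). Without the library labelled LFABP-/- replicate 1 the log2 fold change was 1.34 (adjusted p = 0.246), and without WT replicate 1 it was 1.80, which was called (adjusted p = 0.031). Cdkn1a was also called in 5 other fits, namely 1 fit of all 30 libraries (adjusted p = 0.066), the replicate number as a block (0.042), a term for the name prefix of the libraries (0.040), lymphocyte markers as a covariate (0.029) and library weights (0.013).

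**Figure D1:**
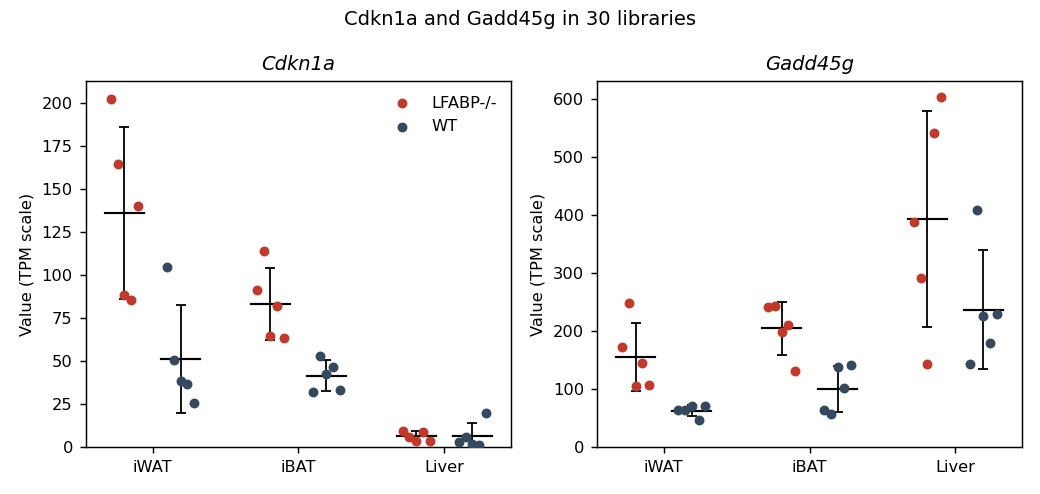
Values (TPM scale) of Cdkn1a and Gadd45g in the 30 libraries, by tissue, with LFABP-/- mice in red and WT mice in dark blue. Points are mice, long bars the mean of 5 and error bars the SD. In iWAT the 5 LFABP-/- mice lie above all WT mice for Gadd45g, and above all WT mice but replicate 1 for Cdkn1a.

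The call on Gadd45g was close to the threshold. It was lost with median-ratio scaling (adjusted p = 0.152), quantile normalization (0.123), skeletal muscle markers as a covariate (0.155) and without the 5 libraries high in lymphocyte markers (0.253), and kept with lymphocyte markers as a covariate (0.022). Leaving out 1 mouse at a time kept it in 5 of 10 fits, with adjusted p between 0.053 and 0.145. It was lost without the library labelled LFABP-/- replicate 1 (0.113), LFABP-/- replicate 4 (0.132) or WT replicate 2 (0.145), 3 (0.136) or 5 (0.139). LFABP-/- replicate 2, which stood apart in brown adipocyte markers, held the highest iWAT value of Gadd45g, and without it the log2 fold change was 1.06 (adjusted p = 0.063). The log2 fold change of Gadd45g stayed between 1.05 and 1.37 over all these settings.

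None of the other 8 genes was called in iWAT, with or without the library labelled LFABP-/- replicate 1. Without it their log2 fold changes were 0.19 for Cdkn1b, 0.51 for Trp53, 1.41 for Gadd45b and -0.55 for Cdkn1c (adjusted p between 0.346 and 0.830), and between -0.05 and 0.34 for the other 4. Cdkn1c, a maternally expressed imprinted CDK inhibitor, was nearest among the genes that were lower, with 32.9 ± 9.49 in LFABP-/- mice and 50.2 ± 7.46 in WT mice and a log2 fold change of -0.63 (SE 0.18, adjusted p = 0.199). The LFABP-/- values were 25.2, 31.4, 34.3, 25.4 and 48.4, and the WT values were 41.6, 57.9, 52.0, 43.3 and 56.4. Only LFABP-/- replicate 5 reached into the WT range, and without it Cdkn1c was called (adjusted p = 0.066). Cdkn1c was called in this 1 of 10 fits with 1 mouse left out, and in 4 of 18 other settings. These settings were 1 fit of all 30 libraries (0.023), the replicate number as a block (0.072), the lymphocyte covariate (0.093) and library weights (0.0038). Library weights called 62.4% of all genes, against 1.45% in the main fit. Among the 18 settings the adjusted p of Cdkn1c was highest, at 0.523, without the libraries high in lymphocyte markers. At an unadjusted p under 0.05, 3 of 10 growth arrest genes and 10.4% of all genes passed.

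Trp53, Cdkn1b and Gadd45b were high in the 5 iWAT libraries rich in lymphocyte markers, in both genotypes. Trp53 had 38.4, 60.1 and 51.9 in the 3 marker-rich LFABP-/- libraries and 35.5 and 74.9 in the 2 marker-rich WT libraries, against 18.1 and 23.5 in the other LFABP-/- libraries and 17.2 to 24.3 in the other WT libraries. For Cdkn1b the marker-rich libraries had 41.1, 60.6 and 55.3 (LFABP-/-) and 40.7 and 76.8 (WT), against 22.7 and 25.1 (LFABP-/-) and 28.2 to 29.4 (WT). Gadd45b, a gene induced by NF-kB, had 34.3, 81.3 and 84 (LFABP-/-) and 33.3 and 59.9 (WT), against 14.7 and 26.5 (LFABP-/-) and 6.3 to 20.3 (WT). For all 3 genes every marker-rich library lay above every other iWAT library. Cdkn1a and Gadd45g did not split in this way, as the library labelled LFABP-/- replicate 1, low in lymphocyte markers, held the highest Cdkn1a value of all. With the markers as a covariate the log2 fold change of Trp53 was -0.07 in place of 0.28 (SE 0.45), and that of Cdkn1b -0.26 in place of 0.01 (SE 0.35). That of Gadd45b was 0.58 in place of 1.06 (SE 0.67, adjusted p = 0.703), with means of 48.2 ± 32.3 in LFABP-/- mice and 25.6 ± 22 in WT mice.

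**Figure D2:**
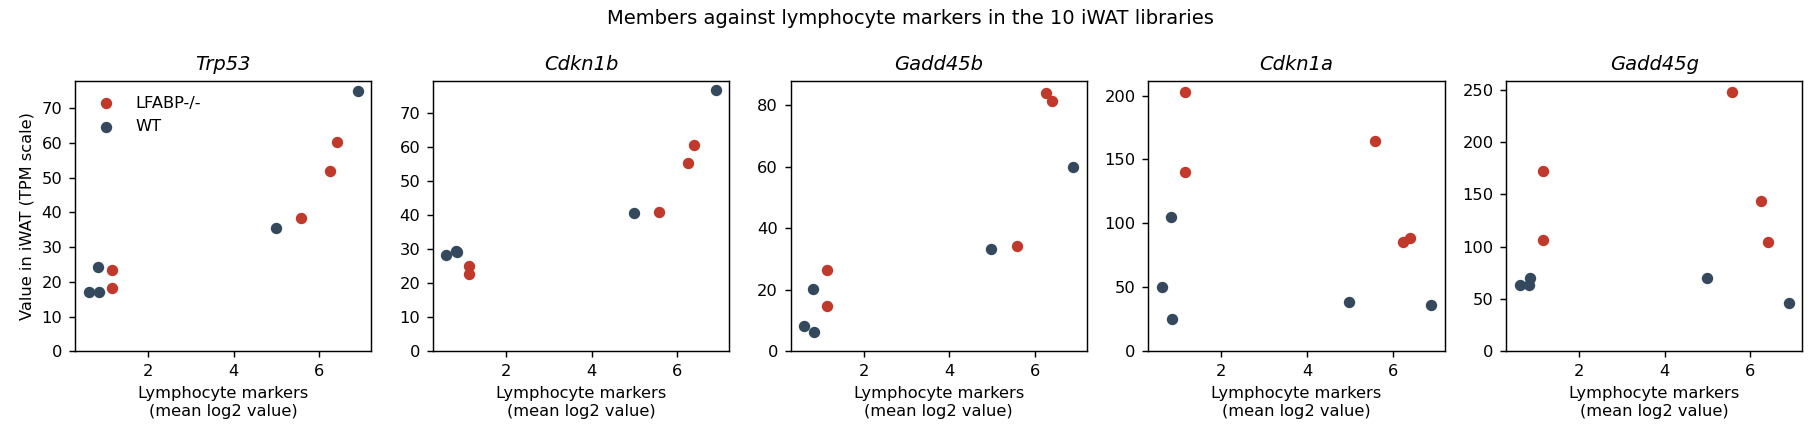
Values (TPM scale) of 5 genes in the 10 iWAT libraries against the mean log2 value of 19 lymphocyte markers, with LFABP-/- mice in red and WT mice in dark blue. Trp53, Cdkn1b and Gadd45b are higher in the 5 libraries at the right whatever the genotype, while for Gadd45g the 5 LFABP-/- mice stand above the 5 WT mice at both ends.

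The remaining members of iWAT differed little. Cdkn2c averaged 126 ± 47.1 in LFABP-/- mice and 112 ± 26.9 in WT mice, and Ccng1, which encodes cyclin G1, averaged 93.8 ± 13.3 in LFABP-/- mice and 97.1 ± 16.8 in WT mice. Mdm2 averaged 31.1 ± 5.56 in LFABP-/- mice and 26.6 ± 6.90 in WT mice, and Gadd45a 21.2 ± 3.79 in LFABP-/- mice and 20.8 ± 7.17 in WT mice. The 95% interval of the log2 fold change was -0.35 to 0.26 for Ccng1, -0.45 to 0.62 for Gadd45a, -0.48 to 0.74 for Cdkn2c and -0.17 to 0.64 for Mdm2.

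In iBAT, 8 of the 10 genes were called, 4 higher and 4 lower in LFABP-/- mice. Many genes differed between genotypes in this tissue, 47.8% of the 11614 tested (22.3% higher and 25.5% lower), so a call on its own sets a gene little apart. The 4 higher genes were Cdkn1a, Gadd45g, Trp53 and Mdm2, and the 4 lower ones Cdkn1b, Cdkn1c, Cdkn2c and Gadd45b. The CDK inhibitors thus moved in opposite directions, Cdkn1a up and the other 3 down.

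Cdkn1a had values of 91.4, 114, 64.4, 81.9 and 63.5 in iBAT of LFABP-/- mice and of 32, 52.9, 42.2, 46.7 and 32.9 in iBAT of WT mice. No LFABP-/- mouse overlapped with a WT mouse. The mean was 83.1 ± 21 in LFABP-/- mice and 41.3 ± 8.97 in WT mice, 2.01 times as high, with a log2 fold change of 0.99 (SE 0.19, adjusted p = 0.0029). LFABP-/- replicates 1 and 2 held the 2 highest Cdkn1a values in iBAT as they did in iWAT.

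Gadd45g had values of 241, 243, 198, 210 and 130 in iBAT of LFABP-/- mice and of 64.4, 57.2, 138, 102 and 141 in iBAT of WT mice. LFABP-/- replicate 5 lay within the WT range and the other 4 stood above it. The mean was 204 ± 45.9 in LFABP-/- mice and 101 ± 39.6 in WT mice, with a log2 fold change of 1.08 (SE 0.28, adjusted p = 0.013). The median hepatocyte marker level, as a share of its level in liver, times the liver mean of Gadd45g came to between 0.752 and 7.22 in LFABP-/- iBAT libraries. With such a share subtracted for every gene, the log2 fold change of Gadd45g was 1.07 (adjusted p = 0.013).

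Of the 3 p53 axis genes, Trp53 and Mdm2 were higher in iBAT of LFABP-/- mice and Ccng1 was not called. Trp53 had values of 8.4, 7.0, 6.7, 7.7 and 6.4 in LFABP-/- mice and of 5.7, 4.4, 4.7, 4.3 and 4.4 in WT mice, without overlap (log2 fold change 0.57, SE 0.09, adjusted p = 0.0013). Mdm2 had 15.8, 13.9, 13.7, 13.5 and 13.2 in LFABP-/- mice and 10.4, 10.6, 11.8, 11.4 and 12.8 in WT mice, also without overlap (log2 fold change 0.29, SE 0.07, adjusted p = 0.010). Mdm2 was thus 1.23 times and Trp53 1.54 times as high in LFABP-/- mice. Ccng1 averaged 80.6 ± 23.1 in LFABP-/- mice and 102 ± 57.3 in WT mice (log2 fold change -0.23, SE 0.32, adjusted p = 0.594).

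Ccng1 in iBAT was highest where skeletal muscle markers were most abundant. WT replicates 4 and 5 had Ccng1 values of 109 and 199 and summed muscle marker values of 25837 and 50279, and LFABP-/- replicate 5 had 120 and 21682. The other 7 libraries had Ccng1 values of 57.9 to 76.3 and muscle sums of 345 to 7862. The part of muscle in the Ccng1 level was not tested beyond the fit with muscle markers as a covariate, in which its log2 fold change was 0.04 (adjusted p = 0.874). All 22 muscle markers were lower in LFABP-/- iBAT and none was called. In that fit the same 8 growth arrest genes were called.

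Among the 4 lower genes, Cdkn1b and Cdkn2c had the smallest p-values and the largest fold changes. Cdkn1b had values of 6.2, 5.9, 6.5, 6.5 and 6.9 in LFABP-/- mice and of 11.1, 10.1, 12.8, 14.8 and 12.2 in WT mice. The groups were far apart, with a mean of 6.40 ± 0.374 in LFABP-/- mice and 12.2 ± 1.78 in WT mice (log2 fold change -0.87, SE 0.09, adjusted p = 0.00017). Cdkn2c had values of 21.4, 20.6, 23.5, 27.7 and 18.9 in LFABP-/- mice and of 45.9, 36.8, 44.5, 42.7 and 33.1 in WT mice, again without overlap (log2 fold change -0.84, SE 0.12, adjusted p = 0.0006). Groups of 5 did not overlap for 5 of the 10 growth arrest genes in iBAT and for 26.4% of all genes.

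Cdkn1c and Gadd45b were lower with a larger p. Cdkn1c had 28 ± 3.18 in LFABP-/- mice and 37.9 ± 9.27 in WT mice, with overlapping ranges (log2 fold change -0.40, SE 0.15, adjusted p = 0.058). Its call was lost with median-ratio scaling (adjusted p = 0.113) and without LFABP-/- replicate 1 or 4 or WT replicate 2 or 3 (adjusted p between 0.114 and 0.126). Gadd45b had values of 2.6, 3.4, 2.6, 3.3 and 1.2 in LFABP-/- mice and of 5.0, 2.9, 3.5, 4.6 and 6.8 in WT mice (log2 fold change -0.70, SE 0.26, adjusted p = 0.052), and its call was lost without WT replicate 1 (0.101) or 5 (0.109). Gadd45a, a p53 target, was not called, with 7.24 ± 2.88 in LFABP-/- mice and 5.08 ± 2.24 in WT mice (log2 fold change 0.51, SE 0.31). In 1 fit of all 30 libraries, which shares 1 estimate of the spread over tissues, 4 of the 8 calls were lost, those of Cdkn1a (adjusted p = 0.120), Mdm2 (0.152), Trp53 (0.177) and Gadd45b (0.346).

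**Figure D3:**
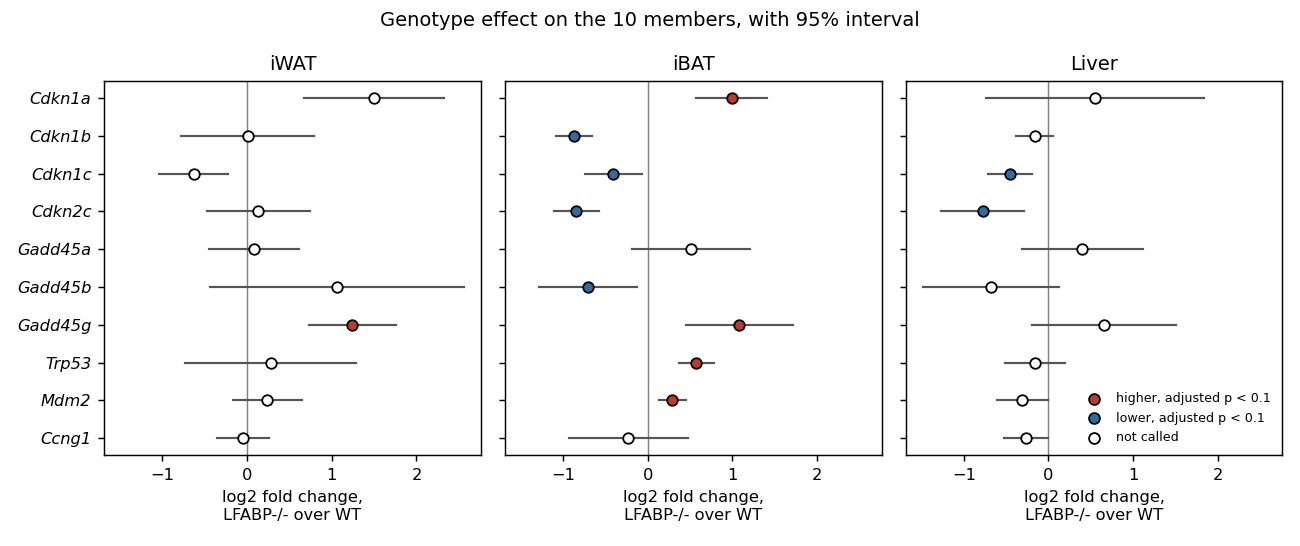
Log2 fold change of the 10 growth arrest genes, LFABP-/- over WT, in iWAT, iBAT and liver (points) with the 95% interval of the limma fit (lines). Red and blue points were called higher and lower at an adjusted p under 0.1 (1 gene in iWAT, 8 in iBAT and 2 in liver).

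In liver, 2 CDK inhibitors were called lower in LFABP-/- mice, Cdkn1c and Cdkn2c, and none of the 10 was called higher. Over all 11629 genes tested, 16.9% were called, 3.08% higher and 13.9% lower, and the median log2 fold change of all genes was -0.10. Both genes are expressed at a low level in this tissue. Cdkn1c had values of 1.8, 2.1, 2.6, 2.7 and 2.2 in LFABP-/- mice and of 2.9, 4.0, 3.0, 3.1 and 3.5 in WT mice. These did not overlap, as for 10% of all genes (log2 fold change -0.45, SE 0.12, adjusted p = 0.042). Without WT replicate 2 the adjusted p was 0.114.

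Cdkn2c had values of 2.4, 2.5, 2.5, 2.6 and 1.9 in liver of LFABP-/- mice and of 2.6, 6.3, 3.3, 4.3 and 7.0 in liver of WT mice. The LFABP-/- mice were close together, while WT mice were spread over a wider range whose lowest value met the highest LFABP-/- value (log2 fold change -0.78, SE 0.22, adjusted p = 0.053). The call was lost without LFABP-/- replicate 5 (0.121) or WT replicate 2 (0.137). Cdkn1c was lower in LFABP-/- mice in all 3 tissues, called in iBAT and liver.

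Gadd45g reached its highest values in liver but varied widely there. LFABP-/- mice had 388, 291, 142, 541 and 603, and WT mice had 143, 408, 225, 179 and 229. The ranges overlapped almost fully, as LFABP-/- replicate 3 was the lowest library of all and WT replicate 2 stood above 3 of the LFABP-/- mice, and the log2 fold change was 0.66 (SE 0.38, adjusted p = 0.290). Without LFABP-/- replicate 3 the log2 fold change was 0.98 and Gadd45g was called (adjusted p = 0.078).

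WT replicate 5 stood apart in liver. Cdkn1a had 9.4, 5.9, 3.6, 8.7 and 3.7 in LFABP-/- mice and 2.7, 5.5, 1.5, 1.4 and 19.9 in WT mice. Replicate 5 also had the highest WT values of Gadd45b (9.4, against 1.3 to 3.9 in the other WT mice and 1.3 to 2.1 in LFABP-/- mice), Trp53 (15.5), Mdm2 (17.6) and Ccng1 (26). Its macrophage markers (13 genes) had a mean log2 value of 5.50, against 3.66 to 4.35 in LFABP-/- livers and 3.65 to 4.25 in the other WT livers, and their part in these values was not tested. With WT replicate 5 the log2 fold change of Cdkn1a in liver was 0.55 (SE 0.59, adjusted p = 0.570), and without it 1.11, which was called (adjusted p = 0.091).

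The remaining liver genes showed no call. Mdm2 (log2 fold change -0.31, SE 0.14) and Ccng1 (-0.26, SE 0.12) had an unadjusted p under 0.05 and adjusted p of 0.166 and 0.176. Mdm2 was called without WT replicate 4 (adjusted p = 0.072). In all, 4 of 10 growth arrest genes had an unadjusted p under 0.05 in liver, against 27.9% of all genes. Trp53 averaged 9.20 ± 1.25 in LFABP-/- livers and 10.6 ± 3.01 in WT livers, Cdkn1b 12.2 ± 1.35 in LFABP-/- livers and 13.8 ± 1.55 in WT livers, and Gadd45a 14.6 ± 6.38 in LFABP-/- livers and 10.3 ± 3.21 in WT livers.

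**Figure D4:**
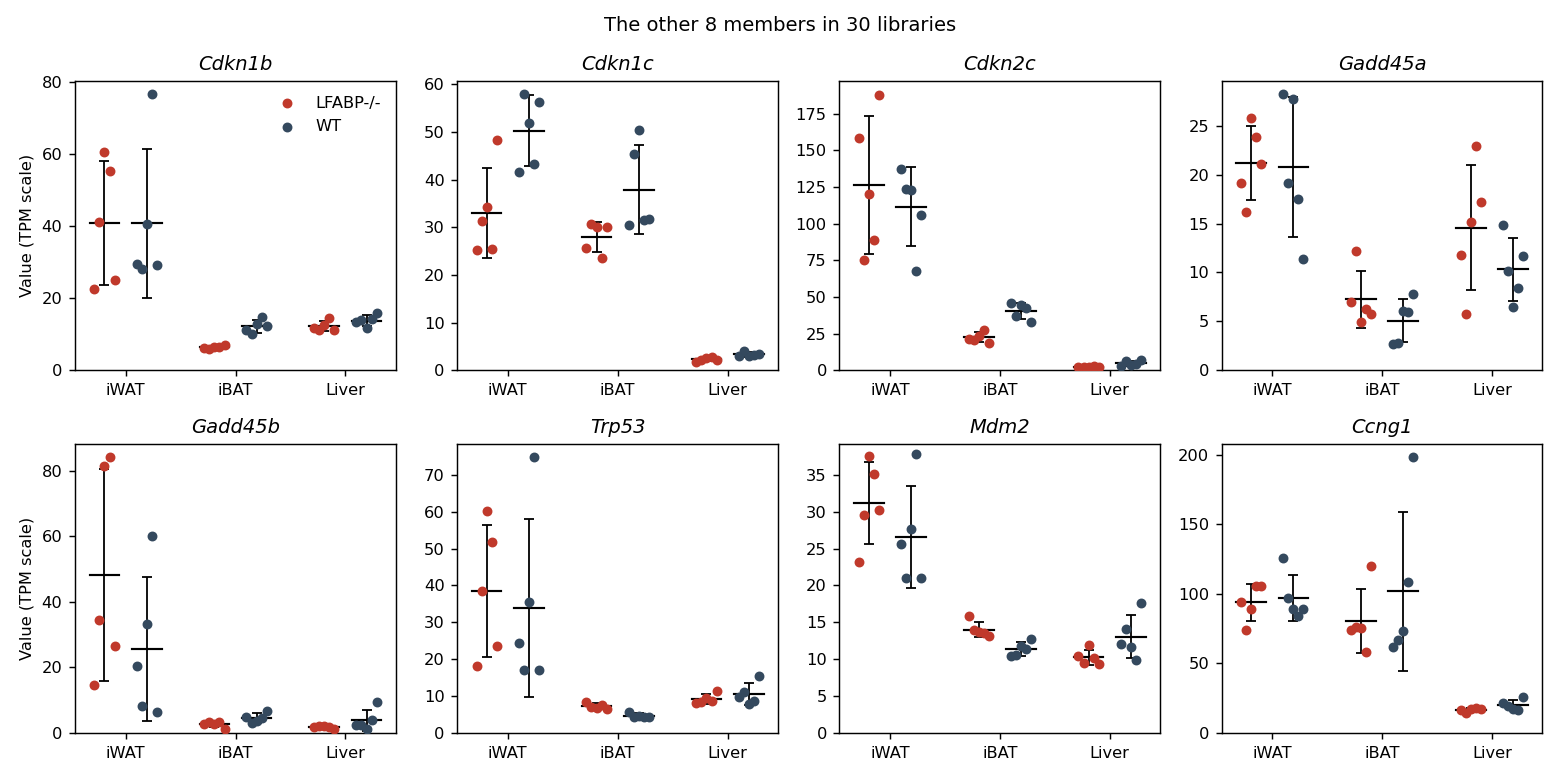
Values (TPM scale) of the other 8 growth arrest genes in the 30 libraries by tissue, LFABP-/- mice in red and WT mice in dark blue, with the mean of 5 (long bar) and SD (error bar). In iBAT the LFABP-/- mice lie below all WT mice for Cdkn1b and Cdkn2c and above all WT mice for Trp53 and Mdm2.

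A further comparison set the effect of the genotype in 1 tissue against that in another, in a joint fit of the 3 tissues that blocked on the mouse. Cdkn2c differed between iWAT and iBAT, where its log2 fold changes of 0.13 and -0.84 were 0.98 apart (SE 0.33, adjusted p = 0.066, with 11.9% of all genes called in this contrast). The call on Cdkn2c was lost without LFABP-/- replicate 1 (adjusted p = 0.143), 3 (0.142) or 5 (0.166), or WT replicate 3 (0.121) or 4 (0.136). Mdm2 differed between iBAT and liver, where its log2 fold changes of 0.29 and -0.31 were 0.60 apart (SE 0.20, adjusted p = 0.054, with 16.7% of all genes called). That call was lost without LFABP-/- replicate 2 (0.135) or WT replicate 1 (0.104) or 2 (0.135).

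No other member was called in these contrasts. For iWAT against liver, limma called 0 of 10 with the mouse block and 0 of 10 without it, against 3.6% of all genes. At an unadjusted p under 0.05, 3 of 10 (Cdkn2c, Gadd45b and Mdm2) and 14.6% of all genes passed. For Gadd45g the effect in iWAT was 0.16 (95% interval -0.81 to 1.14) above that in iBAT and 0.59 (-0.39 to 1.57) above that in liver on the log2 scale. For Cdkn1a these differences were 0.51 (-0.83 to 1.85) and 0.95 (-0.39 to 2.28). The intervals are wide, and the effect of the genotype on Cdkn1a and Gadd45g was not shown to differ between tissues. Cdkn1b, with a log2 fold change of 0.01 (95% interval -0.77 to 0.79) in iWAT and of -0.87 in iBAT, came to 0.88 between these tissues (adjusted p = 0.105).

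Levels were also compared between tissues. In WT mice, 8 of 10 were called between iBAT and iWAT, 10 of 10 between liver and iWAT and 7 of 10 between liver and iBAT, against 91.9%, 91.3% and 73.7% of all genes. Such calls depend on the scale, since mitochondrially encoded genes took 56.3% and 57.8% of the total in iBAT of LFABP-/- and WT mice and 13.6% to 17.7% in the other groups. The median log2 difference of all genes was -1.35 for iBAT against iWAT and -1.17 for liver against iWAT. It was within 0.1 of 0 after median-ratio scaling. A direction is therefore given only where it and its call held on the deposited scale and under 3 rescalings.

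Gadd45g was lowest in iWAT under all 4 scalings, with a mean of 237 ± 102 in liver, 101 ± 39.6 in iBAT and 62.4 ± 9.67 in iWAT of WT mice. It was higher in iBAT than in iWAT (log2 difference 0.60, up to 2.00 on the other scales) and in liver than in iWAT (1.84, up to 3.11). Liver over iBAT was called under 2 of the 4 scalings only, so no order is given for that pair. On the deposited scale alone, the order of the 6 group means was LFABP-/- liver, WT liver, LFABP-/- iBAT, LFABP-/- iWAT, WT iBAT and WT iWAT, and each neighbouring pair in that order overlapped. Cdkn1a ran the other way, with 6.20 ± 7.84 in liver, 41.3 ± 8.97 in iBAT and 51.1 ± 31.3 in iWAT of WT mice, and liver was lower than both adipose tissues under all 4 scalings (log2 difference from iWAT -3.41 and from iBAT -3.25). In the order of the 6 groups on the deposited scale only the step between WT iBAT and LFABP-/- liver was free of overlap. The log2 difference of Cdkn1a between iBAT and iWAT was -0.15 as deposited and 1.24 after median-ratio scaling, so no order is given for these.

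Cdkn1c, Cdkn2c and Ccng1 were also lower in liver than in either adipose tissue under all 4 scalings. Cdkn2c averaged 4.70 ± 1.90 in liver, 40.6 ± 5.44 in iBAT and 112 ± 26.9 in iWAT of WT mice, and Cdkn1c averaged 3.30 ± 0.453 in liver, 37.9 ± 9.27 in iBAT and 50.2 ± 7.46 in iWAT. Cdkn2c was called lower in iBAT than in iWAT as deposited (log2 difference -1.42), but not after median-ratio scaling (-0.02). Gadd45b was lower in liver than in iWAT (-2.38) and Trp53 (-2.49) and Gadd45a (-1.97) were lower in iBAT than in iWAT on every scale. On the deposited scale, the Trp53 values of WT iWAT libraries low in lymphocyte markers (17.2 to 24.3) lay above those of WT iBAT (4.3 to 5.7). These libraries were not compared apart from the others under the rescalings. Over the 3 contrasts, 8 of the 30 differences changed sign with the scale, those of Cdkn1a, Cdkn1c, Mdm2 and Ccng1 between iBAT and iWAT, of Gadd45a and Mdm2 between liver and iWAT, and of Cdkn1b and Mdm2 between liver and iBAT.

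The genes around p53, the CDKs and GADD45 were followed in 8 lists of 4 to 31 genes. In iWAT 2 of 151 list entries were called (1.32%, against 1.45% of all genes), both higher. These were Phlda3, a p53 target that blocks Akt at the membrane, with 907 ± 171 in LFABP-/- mice and 461 ± 131 in WT mice (log2 fold change 1.01, adjusted p = 0.083), and Atf4, the transcription factor of the integrated stress response, with 163 ± 16 in LFABP-/- mice and 112 ± 14.8 in WT mice (0.54, adjusted p = 0.067). Neither overlapped between genotypes. Without the library labelled LFABP-/- replicate 1 neither was called, with a log2 fold change of 0.95 (adjusted p = 0.172) for Phlda3 and of 0.56 (0.110) for Atf4. Of 29 p53 target genes tested in iWAT, 22 had a positive and 7 a negative log2 fold change, with a median of 0.11 beside 0.05 over all genes. Over all genes tested in iWAT, 60.6% had a positive log2 fold change. None of 28 proliferation markers was called, and 21 of them were negative (median -0.19).

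In iBAT 57 of 111 list entries were called (51.4%, against 47.8% of all genes), 21 higher and 36 lower. Of 24 p53 targets, 7 were higher and 8 lower. Aen, a nuclease induced by p53, was higher (9.36 ± 0.270 in LFABP-/- mice and 5.60 ± 0.552 in WT mice), as was Gdf15, a stress cytokine (20.6 ± 13.3 in LFABP-/- mice and 0.220 ± 0.179 in WT mice, a WT level so low that the log2 fold change of 4.64 depends on the pseudocount). Ercc5, an endonuclease of excision repair, was lower (3.66 ± 0.230 in LFABP-/- mice and 5.50 ± 0.339 in WT mice). The median log2 fold change of the 24 was 0.04, beside -0.03 over all genes.

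Of 14 regulators of p53 in iBAT, 6 were lower and 1 higher, with a median log2 fold change of -0.050, and over all genes 25.5% were lower and 22.3% higher. The higher one was Hipk2, a kinase of p53 (log2 fold change 0.71), and the acetyltransferase genes Kat5 (-0.26) and Ep300 (-0.27) were lower. Of 14 cyclins, CDKs and pocket proteins, 3 were higher and 4 lower, with Rbl2, a pocket protein of resting cells, at 8.18 ± 0.698 in LFABP-/- mice and 13.4 ± 1.43 in WT mice, Cdk6 at 1.60 ± 0.200 in LFABP-/- mice and 2.88 ± 0.217 in WT mice, and E2f2 at 7.12 ± 2.31 in LFABP-/- mice and 1.74 ± 0.568 in WT mice. Cdkn2d, another INK4 gene, was lower too (-0.49). Only 6 of 30 proliferation markers passed the filter in iBAT, of which 3 were lower and 1 higher. The lower ones included the helicase subunits Mcm4 (-0.88) and Mcm7 (-0.35), and the higher one was Rrm1, a subunit of ribonucleotide reductase (0.33).

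Among the 11 kinases and targets downstream of GADD45 in iBAT, 3 were higher and 1 lower. Map3k5 was lower (log2 fold change -0.78), and the JNK genes Mapk8 (0.29) and Mapk9 (0.17) were higher. Of 17 other antiproliferative genes, 6 were lower and 1 higher (median log2 fold change -0.069, beside -0.035 over all genes). The lower ones included Nupr1 (-0.69), Klf10, an early response gene of TGF-beta (-1.01), and Gas1 (-0.67). Of 23 transcription factors known to act on Cdkn1a or Gadd45 genes, 5 were higher and 7 lower. Atf4 was the most changed by p-value, with 171 ± 29.5 in LFABP-/- mice and 56.8 ± 4.91 in WT mice (1.57, adjusted p = 3.5e-05), while Sp1 (-0.59) and Cebpa (-0.91) were lower.

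In liver 22 of 118 list entries were called (18.6%, against 16.9% of all genes), 5 higher and 17 lower. The lower ones included the p53 targets Xpc (log2 fold change -0.39), Plk2 (-0.85) and Ppm1d (-0.50), the pocket protein genes Rbl2 (-0.43) and Rb1 (-0.41), the p53 regulators Hipk2 (-0.63), Ep300 (-0.33) and Trim28 (-0.31), the kinase p38 gene Mapk14 (-0.35), and Sesn3 (-0.55), Ing1 (-0.32), Smad4 (-0.50) and Sp1 (-0.32). Among the higher ones were Cks1b (0.73), Rrm2 (0.37), Tob1 (0.51) and Cebpb (0.44). Hipk2 was thus called in iBAT and in liver in opposite directions, which was not tested as a difference here. No p53 target was called higher in liver.

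**Figure D5:**
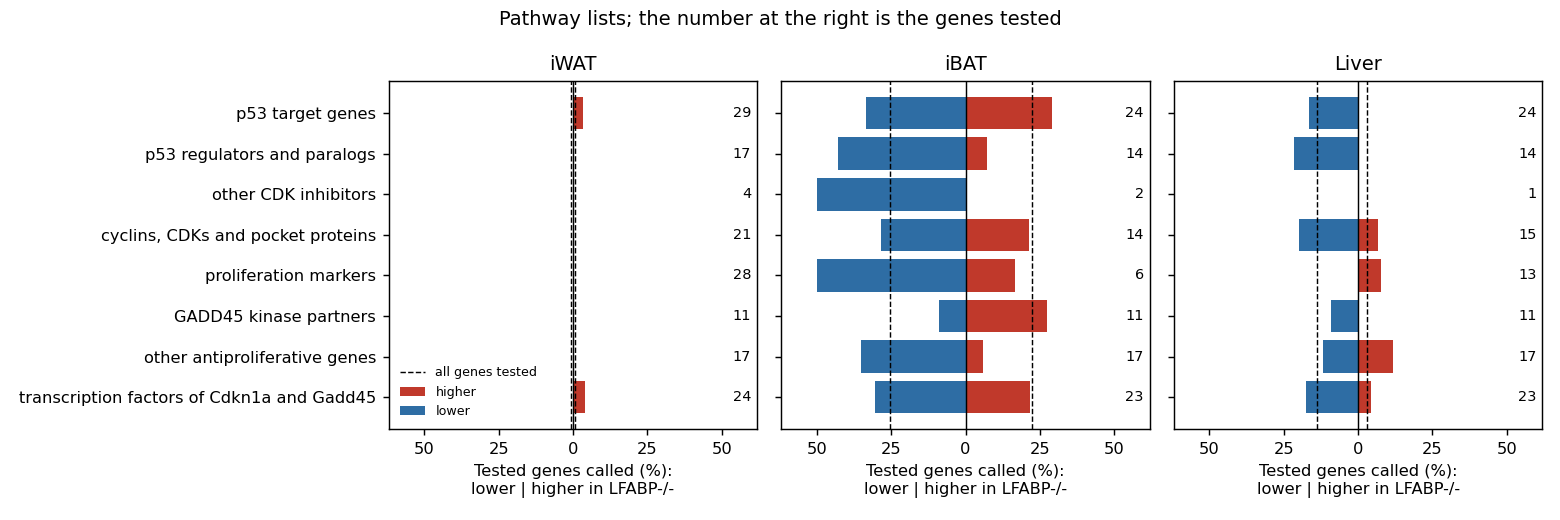
Share of the tested genes of each list called lower (blue, to the left) or higher (red, to the right) in LFABP-/- mice, by tissue. Dashed lines give the share over all genes tested and the number at the right the genes tested. In iWAT 2 bars are above 0, each of 1 gene.

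Genes whose pattern was most like that of Cdkn1a and Gadd45g were sought among 10114 genes with a mean of at least 1 in each tissue, by Pearson r of log2 values about the tissue mean over 30 libraries. The libraries come from 10 mice and share genotype and depth, so r is a description. For Cdkn1a they were Asna1 (r = 0.86), Flot1 (0.80), Lrrc39 (0.79), Rbpms (0.78) and Psmd8 (0.78). Asna1 held in each tissue, with r of 0.84 in iWAT, 0.88 in iBAT and 0.92 in liver. For Gadd45g they were Sdc4 (0.74), Cebpb (0.74), Tmem11 (0.73), Pfdn2 (0.73) and Mtres1 (0.73), with r of Cebpb between 0.70 and 0.82 in the 3 tissues. No member of the growth arrest genes was among either set of 5.

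Reads of overlapping genes cannot be told apart where counting ignored strand, and the sources used here do not give the strand setting. In the table, Cdkn1a overlaps 1700023B13Rik over 1046 bases on the other strand, at 0 in every library. Cdkn1c overlaps Gm44732 (at most 3.2) and Gadd45a overlaps E230016M11Rik (at most 1.3), both on the other strand.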

How the data were processed

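Polyadenylated RNA of iWAT, iBAT and liver was sequenced by the study, and gene values were made by the authors in CLC Genomics Workbench on GRCm38 with Ensembl gene models. The deposited values are headed RPKM but sum to the same total in each library, so they were taken as TPM, and no count test could be run. They carry 1 decimal. All 30 columns were used (0 left out).

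For each tissue, log2(TPM + 0.5) of genes with a mean of at least 1 was fitted with limma 3.58.1 (R 4.3.3, statmod 1.5.0) with an intensity trend. P-values were adjusted over all genes by Benjamini-Hochberg, and called under 0.1. A fold change on this scale understates the change of low genes. Differences between tissues came from a fit of 13925 genes with the mouse as a random block (correlation -0.016). Every p in the text is from limma. Tables were handled with Python 3.11.15 and pandas 2.3.3, and the fits were tested on simulated data.

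Named were the 10 members, Fabp1, up to 3 called genes with the smallest p per pathway list and tissue, and the 5 genes most like Cdkn1a and Gadd45g. Marker lists, scaling, filters, covariates, blocks and left-out libraries were the alternatives. Members and lists were chosen with earlier results of these data known. No pair of replicates was a copy of another. Each list gene but 1 was found. Motif positions count from the transcription start.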

Additional observations from a re-analysis of the deposited data

Results flagged for a closer look

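In 60 groups of 5 libraries, 6 held a highest or lowest library far from the rest, and chance gives about 1 in 20. These were Cdkn2c in LFABP-/- liver replicate 5 (1.9, the others 2.4 to 2.6), Gadd45a in LFABP-/- iBAT replicate 2 (12.2, the others 4.9 to 7.0), Mdm2 in LFABP-/- iBAT replicate 1 (15.8, the others 13.2 to 13.9), Cdkn1a in WT liver replicate 5 (19.9, the others 1.4 to 5.5), Cdkn1b in WT iWAT replicate 4 (76.8, the others 28.2 to 40.7) and Trp53 in WT iBAT replicate 1 (5.7, the others 4.3 to 4.7). WT iWAT replicate 4 had the highest lymphocyte marker level of all libraries.

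The genotype effect was called as different between tissues for Cdkn2c, 0.98 higher on the log2 scale in iWAT than in iBAT (limma, adjusted p = 0.066). For Mdm2 it was 0.60 higher in iBAT than in liver (adjusted p = 0.054). Of all genes, 11.9% and 16.7% were called in these contrasts. With 1 mouse left out, the call on Cdkn2c was kept in 5 of 10 fits and that on Mdm2 in 7 of 10.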

How the results depend on the processing

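Over single genes, 438 of 485 values under another setting and 281 of 320 with a library left out kept their direction and side of the threshold, and none of the called values changed sign. In iWAT the count of called members of the growth arrest genes, 1 of 10 (213 genes in all), was 0 with median-ratio scaling (101 in all), quantile normalization (128), an adjusted p under 0.05 (74), a muscle covariate (55) and without the libraries high in lymphocyte markers (6). It was 2 with a term for the name prefix of the mouse's iBAT and liver libraries, 3 with 1 fit of all libraries (805) or a lymphocyte covariate (1202), and 7 with library weights (9158, 62.4% of all genes). The iWAT libraries of WT mice all share a name prefix that several iWAT libraries of LFABP-/- mice lack. In iWAT the prefix of the library's own name thus cannot be fully separated from the genotype. With no filter or a filter at a mean of 20 it stayed at 1 (135 in all in each), as with the study thresholds (132). In iBAT the 8 calls were 4 with a filter at 20 (1391, against 5556), 1 fit of all libraries and the fold and level thresholds of the study (1136). In liver the 2 calls were 0 with the filter at 20 (564, against 1969) and the study thresholds (588), and 1 at an adjusted p under 0.05 (1012). All liver calls numbered 1382 with no filter, 1359 with 1 fit of all libraries and 1208 without mitochondrial genes.

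For the genotype effect in iWAT against iBAT, the 1 call among the members was 0 at 0.05 (1023, against 1654), 2 with a pseudocount of 0.1, a filter at 20 (738), median-ratio scaling (2535) or no mouse block, and 3 with quantile normalization or without mitochondrial genes (2503). Between iWAT and liver it was 1 with median-ratio scaling. Between iBAT and liver it was 0 at 0.05 and with the filter at 20, and 2 with median-ratio scaling, quantile normalization and without mitochondrial genes. The filter at 20 left 4 of 8 calls for iBAT against iWAT and 6 of 10 for liver against iWAT in WT mice. Except for the filter and threshold, which test fewer genes or ask more, the cause was not tested.

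Uncalled log2 fold changes near 0 changed sign. Cdkn1b in iWAT was -0.029 (median-ratio), -0.059 (quantile), -0.064 (muscle covariate), -0.10 (name prefix), -0.26 (lymphocyte covariate) and -0.27 (without lymphocyte-rich libraries). Cdkn2c in iWAT was -0.20 and Ccng1 0.0025 with library weights, and with the lymphocyte covariate Ccng1 was 0.0023 and Trp53 -0.069. Ccng1 in iBAT was 0.044 with the muscle covariate. With 1 library left out, iWAT values ran from -0.16 to 0.26 for Cdkn1b, -0.092 to 0.052 for Ccng1, -0.035 to 0.30 for Cdkn2c and -0.11 to 0.21 for Gadd45a, and iBAT values of Ccng1 from -0.38 to 0.050. Counts of calls ran from 0 to 2 in iWAT, in liver, for iWAT against iBAT and for iWAT against liver, and from 0 to 1 for iBAT against liver.

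The labels do not say whether the replicate number marks a shared source across genotypes. Same-numbered mice deviated together (r over 0.1) in 4 of 5 pairs in iWAT and 2 of 5 in iBAT and liver, and 2, 1 and 2 of these pairs correlated best with their own number. With the replicate block 3 growth arrest genes were called in iWAT (Cdkn1a, Cdkn1c and Gadd45g), 7 in iBAT and 2 in liver (1258 members and other genes in all, against 1969). Covariates for muscle in iBAT and the subtraction of a liver share were chosen after seeing the data. Depth is unknown, and liver values of Cdkn1c and Cdkn2c rest on 1 decimal.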
